A study of Mus musculus with 11 samples.

Results

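The 36 genes described here are transcripts of macrophages and other leukocytes, taken from 18193 genes that had a probe set with a single symbol in the array's annotation. They were listed by name. Where a gene had several probe sets, the one of highest average level on the 11 arrays stood for it, and all 36 genes had at least 1. They fall into 8 groups by role: leukocyte surface and cytoskeleton genes, the lineage factor Spi1 with 2 cytokine receptors, macrophage surface receptors, the 3 chains of complement C1q, Fc receptors and their signalling adaptors, lysosomal, antigen presentation and oxidase genes, the chemokine Pf4, and 1 receptor chain each of T and B lymphocytes.

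The study profiled 2 cell lines, labelled as stem cells for the interstitial cells of Cajal that pace the gut, beside the stomach muscle wall of the same 2 mouse strains. One line, 2xSCS2F10, is wild-type C57BL/6J and was cultured at 37 °C in NeuroCult neural stem cell medium to which 5% chick embryo extract was added (3 arrays). The other, 2xSCS70, is conditionally immortalized: its donors were H-2Kb-tsA58 mice, whose transgene encodes a heat-labile large T antigen under the interferon-inducible H-2Kb promoter. It was kept at 39.5 °C without interferon-gamma in the same base medium, with no extract named (3 arrays). These are called the C57BL/6J line and the tsA58 line below. Gastric tunica muscularis, the muscle layers of the stomach wall, was taken from C57BL/6J mice (2 arrays) and from H-2Kb-tsA58 mice (3 arrays). Each line is 1 clone, and the lines differ at once in strain, transgene, temperature, extract and sex-linked transcripts, which cannot be told apart. The labels give no age, and the titles call the arrays of a group biological replicates without saying whether they came from separate cultures or animals, so the p-values below measure the spread between these arrays, part of which may be technical.

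Macrophages are the main resident leukocytes of the muscle wall of the gut. They derive from progenitors and blood monocytes under the transcription factor PU.1, the product of Spi1, and depend on the growth factor CSF1, read by the receptor CSF1R. In the muscularis they lie among smooth muscle cells, interstitial cells and the enteric plexus, clear dying cells through complement and scavenger receptors, and exchange CSF1 and BMP2 with enteric neurons.

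Levels are log2 intensities made with RMA, which gives the probes of all arrays the same distribution, so a difference of 1 is a 2-fold change relative to the bulk of the transcripts. They carry no detection call. The median over all probe sets lay between 4.66 and 4.84 on the 11 arrays, and a level below it is written here as below the array median; a difference that ends there understates the change. Differences are given with their standard error (SE), and a gene was called when its limma adjusted p was below 0.05 and the change at least 2-fold. Of the 36 genes 35 were above the array median on at least 2 arrays and were tested among 13285 genes. The B cell chain Cd79a was not tested. For 16 of the 35 it was tissue arrays alone that passed this filter, so the count over the 35 in each comparison is also given without it.

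The labels were checked first. Smooth muscle genes averaged 11.30 to 12.85 on the tissue arrays and 5.55 to 6.36 on the line arrays, with the enteric actin Actg2 between 12.30 and 13.18 in tissue and between 3.22 and 3.73 in the lines. The lines, labelled as progenitors, held the interstitial cell receptor Kit below the array median on all 6 arrays (3.16 to 3.87), against 6.83 to 8.61 in tissue, and kept the progenitor markers Cd44 (10.67 to 11.74) and Cd34 (8.72 to 11.12). Pairs of replicates had correlations of 0.986 to 0.991 (C57BL/6J line), 0.982 (C57BL/6J tissue) and 0.964 to 0.976 (tsA58 tissue). In the tsA58 line replicate 3 stood apart, at 0.956 and 0.967 against 0.988 for the other pair. Its actin probe sets gave a log2 ratio, 3' over 5', of 0.05 against 0.51 and 0.85. Sex-linked transcripts differed between and within groups. The C57BL/6J line had Xist at 11.58 to 11.73 and the Y-linked Kdm5d at 2.45 to 2.68, and the tsA58 line had Xist at 4.91 to 5.07 and Kdm5d at 6.19 to 6.54. In C57BL/6J tissue Xist was 10.12 and 5.47 with Kdm5d at 5.31 and 5.34, and in tsA58 tissue Xist was 4.83, 9.32 and 4.66 with Kdm5d at 6.56, 2.56 and 6.64, so that replicate 2 stood apart. The part of sex in the results was not tested. The tissue arrays also held 7 genes of the gastric mucosa at a mean of 9.94 to 12.90 and 4 genes of the exocrine pancreas at 5.76 to 11.60. Within tsA58 tissue both means were highest in replicate 2, which was also the highest of its group for 32 of the 36 genes, while replicate 1 was the lowest for 25.

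The heat map of all 36 genes sets out the levels that the following paragraphs take up by role. The mean of the 36 levels lay between 4.98 and 5.11 for the C57BL/6J line, at 6.71 and 6.81 for C57BL/6J tissue, between 4.56 and 4.84 for the tsA58 line and between 6.77 and 7.86 for tsA58 tissue. No line array reached a tissue array.

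**Figure D1:**
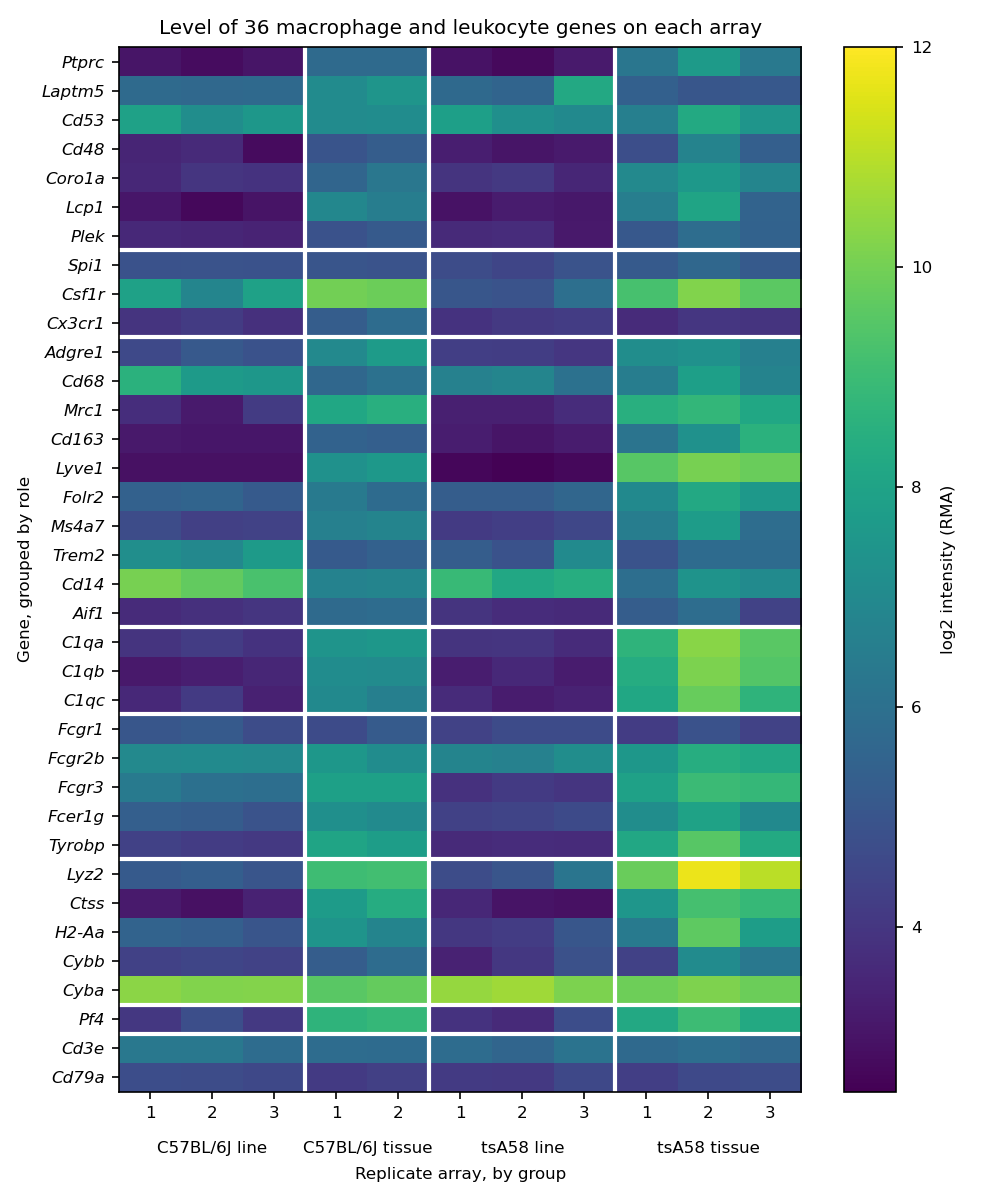
Log2 intensity (RMA) of the 36 genes on each of the 11 arrays, with genes in rows grouped by role, arrays in columns grouped by line or tissue, and colour running from low (dark) to high (yellow). Most rows are dark in both lines and lighter in both tissues, while Cd14, Cd68, Trem2, Csf1r, Cd53, Fcgr2b and Cyba stay light in at least 1 line.

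Most of the macrophage genes were lower in a line than in the muscle wall of its strain. Against its tissue, the C57BL/6J line had 22 of the 35 genes lower and 3 higher, where 16.6% of all genes tested were called lower and 17.5% higher. The tsA58 line had 25 lower and 1 higher, against 18.9% and 12.8% of all genes. The median difference of the 35 genes was -1.93 in C57BL/6J, beside 0.12 over all genes, and -2.89 in tsA58. Without the filter the counts were again 22 lower and 3 higher in C57BL/6J, where 12.3% and 12.7% of 18193 genes were called, and 25 and 1 in tsA58, where 14% and 9.27% were. With levels centred on 18 spiked hybridisation controls, which raises every gene by 1.23 in C57BL/6J and 0.60 in tsA58, the counts were 10 lower and 5 higher, and 21 and 2. Of the genes named with all array values, Ptprc, Coro1a, Csf1r, Cx3cr1, Adgre1, Cd163 and Fcgr3 then lost their lower call in C57BL/6J. So did others of the 22. The share of all genes called with this centring is not given, here or below. Its counts therefore only describe the listed genes. Without the centring, lower in both strains were 21 genes, which is 95.5% of those lower in C57BL/6J and 84% of those lower in tsA58. The 2 comparisons share no array, but their SEs come from 1 fit of all 11 arrays. Below the array median on all 6 line arrays were 16 genes, and 14 of these were above it on all 5 tissue arrays. The matching shares over all genes are not given, so the overlap and these counts only describe the listed genes. In whole tissue and cultures, fewer cells of a type and less RNA per cell cannot be told apart.

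**Figure D2:**
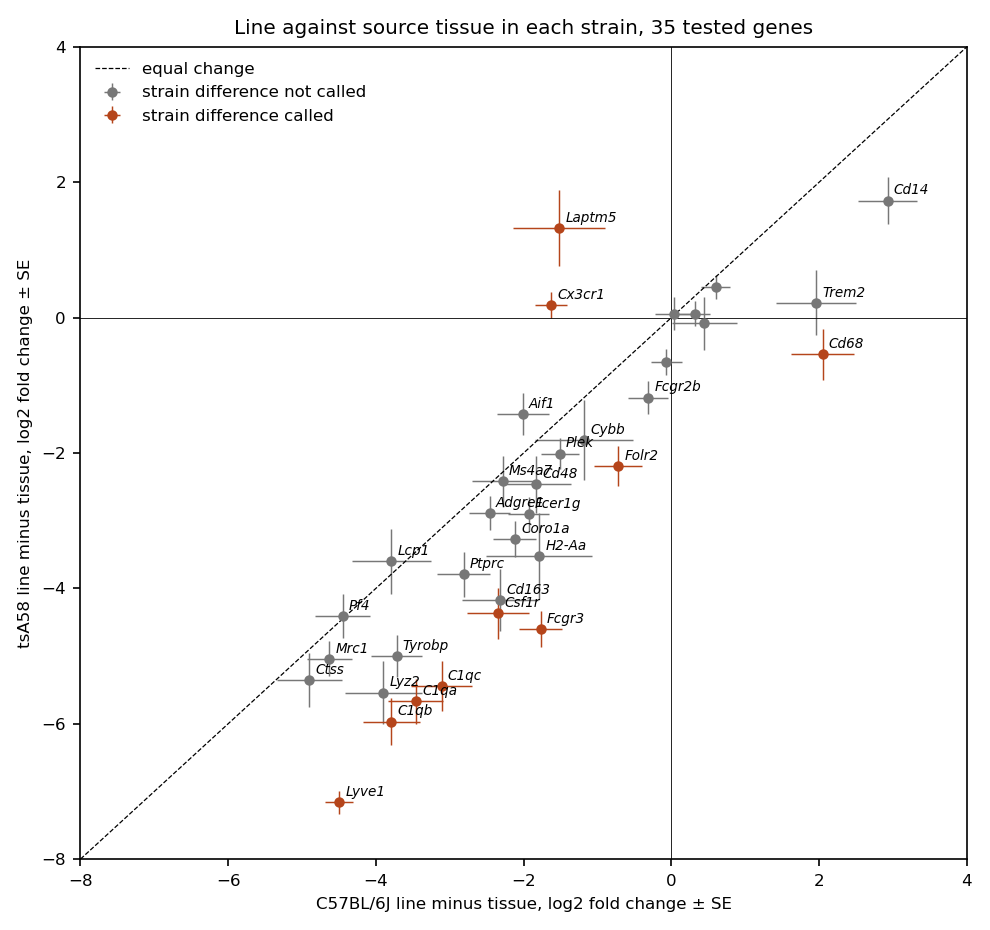
Difference between line and tissue (log2 fold change ± SE) for the 35 tested genes, C57BL/6J on the horizontal axis and tsA58 on the vertical axis, with the line of equal change dashed and genes whose strain difference was called in orange. Most genes lie in the lower left, with Cd14 alone well above 0 in both strains and Lyve1 lowest at -7.16 in tsA58.

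Of the 7 leukocyte surface and cytoskeleton genes, 5 were lower in both lines: Ptprc, Cd48, Coro1a, Lcp1 and Plek. Ptprc encodes the phosphatase CD45, carried by all white blood cells. Its level was 3.02, 2.83 and 3.04 on the C57BL/6J line arrays, 5.77 and 5.79 in C57BL/6J tissue, 2.96, 2.75 and 3.18 on the tsA58 line arrays and 6.24, 7.67 and 6.35 in tsA58 tissue. All 6 line arrays were below the array median and below every tissue array. The difference was -2.81 ± 0.36 in C57BL/6J (limma adjusted p = 0.000133) and -3.79 ± 0.33 in tsA58 (adjusted p = 6.57e-06).

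Lcp1, an actin-bundling plastin of leukocytes, had the largest difference of this group in C57BL/6J. It lay at 3.07, 2.71 and 3.01 in the C57BL/6J line against 6.91 and 6.53 in tissue, and at 2.98, 3.23 and 3.13 in the tsA58 line against 6.58, 8.03 and 5.53. The lines were flat and low, while tsA58 tissue spread widely. The differences were -3.79 ± 0.54 and -3.60 ± 0.48. Coro1a, a leukocyte coronin that binds actin, fell from 5.60 and 6.25 in tissue to 3.57, 3.96 and 3.89 in the C57BL/6J line, and from 6.97, 7.57 and 6.81 to 3.92, 4.07 and 3.53 in the tsA58 line. Its differences of -2.12 ± 0.29 and -3.27 ± 0.26 came from groups that did not overlap. Cd48, a surface receptor of the SLAM family, differed by -1.83 and -2.46, and Plek, the kinase substrate pleckstrin, by -1.51 and -2.01.

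Cd53, a leukocyte tetraspanin, did not follow them. It stood between 6.59 and 8.26 in all 4 groups, and its differences of 0.45 ± 0.44 and -0.08 ± 0.39 were not called. Laptm5, a lysosomal membrane protein of blood cells, gave opposite signs that were not called either (-1.52 ± 0.62 and 1.32 ± 0.56), and its answer depended on the probe set, as described below.

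Among the lineage factor and the 2 cytokine receptors, Spi1 was low everywhere. PU.1 mRNA was read at 4.90, 4.92 and 4.88 in the C57BL/6J line, 5.02 and 4.92 in its tissue, 4.71, 4.50 and 4.92 in the tsA58 line and 5.20, 5.69 and 5.18 in tsA58 tissue. The values ran from 4.50 to 5.69, close to the array median on most arrays. The difference was -0.07 ± 0.21 in C57BL/6J, and -0.65 ± 0.19 in tsA58, which had an adjusted p of 0.0149 but was under 2-fold.

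Csf1r, the receptor for the macrophage growth factor, behaved differently in the 2 lines. It measured 7.95, 6.83 and 7.95 in the C57BL/6J line and 9.96 and 9.88 in its tissue, a difference of -2.34 ± 0.42. In the tsA58 line it measured 5.04, 4.92 and 5.96 against 9.24, 10.19 and 9.59 in tissue, a difference of -4.37 ± 0.38. The C57BL/6J line thus sat between its tissue and the tsA58 line with no overlap. With the mean of all its probe sets the C57BL/6J difference was -0.90, under 2-fold.

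Cx3cr1, the receptor for fractalkine, was above the array median in C57BL/6J tissue alone. It read 5.31 and 5.87 there, against 3.92, 4.14 and 3.80 in the C57BL/6J line, 3.91, 4.09 and 4.18 in the tsA58 line and 3.68, 4.0 and 3.94 in tsA58 tissue. It was the 1 gene called lower in C57BL/6J and not in tsA58, at -1.63 ± 0.22 (adjusted p = 0.000153) and 0.19 ± 0.19. Its second probe set lay below the array median on all 11 arrays.

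The 10 macrophage surface receptors and markers made up the largest group, of which the C57BL/6J line had 6 lower and 3 higher and the tsA58 line 7 lower and 1 higher. Adgre1 encodes F4/80, the antigen by which mouse macrophages are usually recognised. It was 4.58, 5.15 and 4.91 in the C57BL/6J line and 4.26, 4.22 and 3.99 in the tsA58 line. Tissue values were 6.97 and 7.70 in C57BL/6J and 7.16, 7.32 and 6.65 in tsA58. The groups did not overlap, and the differences were -2.46 ± 0.28 and -2.89 ± 0.25 (adjusted p = 5.76e-05 and 7.09e-06).

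Mrc1, the mannose receptor, had the largest fall of this group in C57BL/6J and the second largest in tsA58. It was 3.76, 3.19 and 4.15 in the C57BL/6J line against 8.16 and 8.50, and 3.32, 3.32 and 3.71 in the tsA58 line against 8.50, 8.80 and 8.17. These are differences of -4.63 ± 0.30 and -5.04 ± 0.26, or 24.8-fold and 32.9-fold. The tissues of the 2 strains overlapped.

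Cd163, which takes up haemoglobin bound to haptoglobin, was at 3.14, 3.09 and 3.07 in the C57BL/6J line and 5.47 and 5.37 in its tissue. In tsA58 it went from 6.16, 7.30 and 8.58 in tissue to 3.26, 3.03 and 3.24 in the line. Every line array was below the array median. The differences were -2.32 ± 0.51 and -4.17 ± 0.46.

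Lyve1, a hyaluronan receptor of lymphatic endothelium and of a subset of resident macrophages, showed in tsA58 the largest difference of the 35 genes. It was 2.91, 2.94 and 2.94 in the C57BL/6J line against 7.30 and 7.56 in tissue, and 2.67, 2.57 and 2.72 in the tsA58 line against 9.55, 10.07 and 9.83. Replicates lay close together, with SDs of 0.02, 0.18, 0.08 and 0.26 in this order (n = 3, 2, 3 and 3). The differences of -4.50 ± 0.19 and -7.16 ± 0.17 had adjusted p-values of 7.39e-08 and 5.72e-10. Of the lymphatic markers, Prox1 was below the array median on all 11 arrays (2.59 to 3.39), whereas Pdpn was 9.39 to 11.13 and Flt4 6.03 to 10.13 across lines and tissues.

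The folate receptor Folr2 was lower in the tsA58 line, at 5.31, 5.31 and 5.63 against 7.01, 8.24 and 7.58 (-2.19 ± 0.29). In the C57BL/6J line it was 5.45, 5.56 and 5.20 against 6.42 and 5.83, and that difference of -0.72 ± 0.33 was not called. The membrane protein Ms4a7 differed by -2.28 and -2.42 and Aif1, the macrophage marker IBA1, by -2.01 and -1.43.

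Cd14, Cd68 and Trem2 went the other way. Cd14, the co-receptor for bacterial lipopolysaccharide, was the 1 gene of the 36 that was higher in both lines. It measured 10.04, 9.72 and 9.29 in the C57BL/6J line against 6.73 and 6.78 in tissue, and 8.90, 8.20 and 8.43 in the tsA58 line against 5.93, 7.38 and 7.04. No line array overlapped a tissue array. The differences were 2.93 ± 0.40 (adjusted p = 0.000178) and 1.73 ± 0.35 (adjusted p = 0.00243), or 7.60-fold and 3.31-fold.

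Cd68 encodes a glycoprotein of lysosomes that is abundant in macrophages and present in other cells. In the C57BL/6J line it was 8.55, 7.67 and 7.53 against 5.67 and 6.06 in tissue, a rise of 2.05 ± 0.43 (adjusted p = 0.00272). In the tsA58 line it was 6.67, 6.81 and 6.05 against 6.54, 7.87 and 6.74, which overlapped (-0.54 ± 0.38). Trem2, a lipid receptor that signals through Tyrobp, was 7.18, 6.95 and 7.68 in the C57BL/6J line against 5.18 and 5.44 in tissue, or 1.96 ± 0.54 higher (adjusted p = 0.0122). In tsA58 the line read 5.30, 4.89 and 7.03 and the tissue 4.94, 5.81 and 5.81, so that only replicate 3 of the line reached the C57BL/6J line.

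The rise of Trem2 rested on 1 of its 2 probe sets. The second read 4.62 to 5.05 in the C57BL/6J line and 4.90 and 4.81 in tissue (0.03 ± 0.19), and the mean of both gave 1.00. Without C57BL/6J tissue replicate 1 the adjusted p was 0.0787. Cd14 and Cd68 have 1 probe set each.

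**Figure D3:**
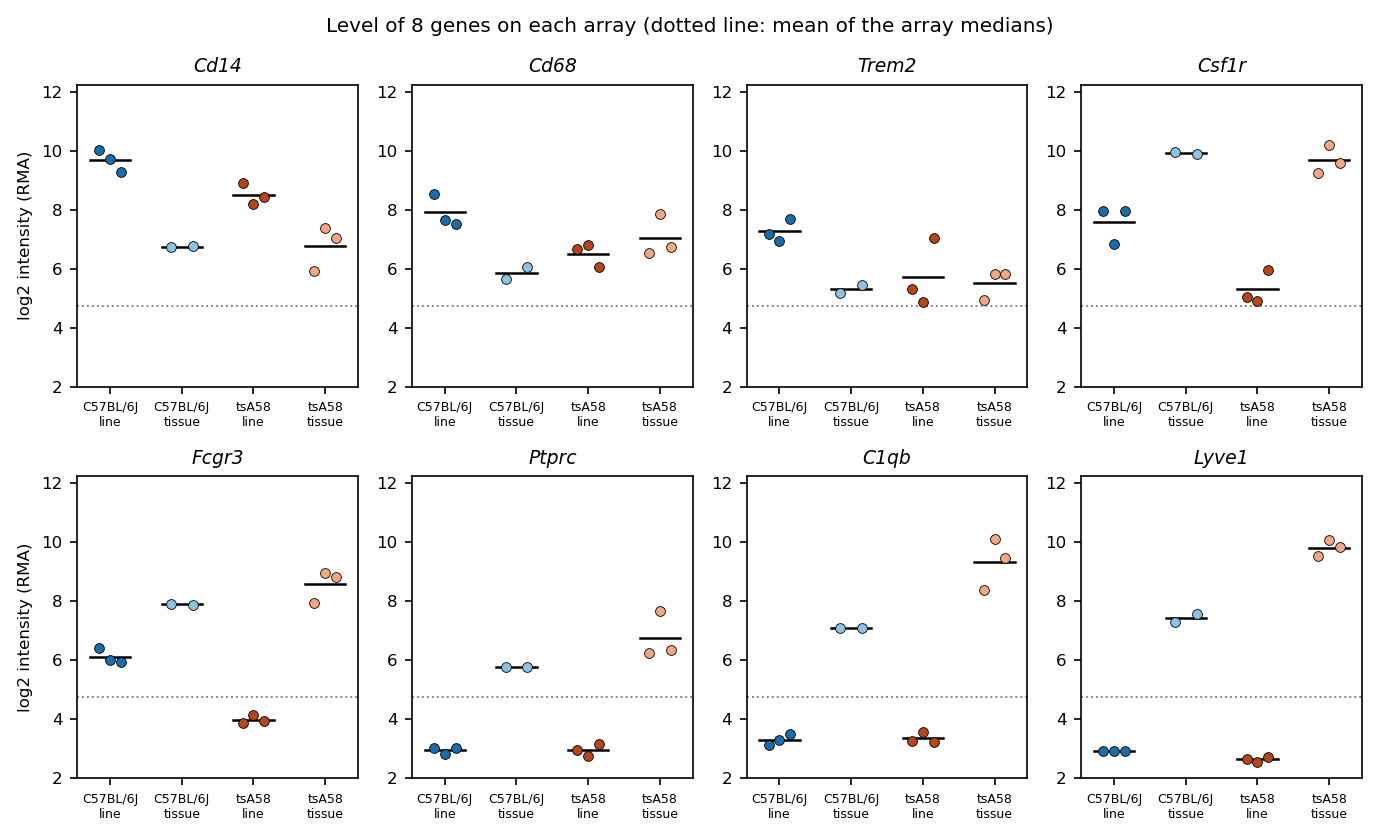
Log2 intensity (RMA) of Cd14, Cd68, Trem2, Csf1r, Fcgr3, Ptprc, C1qb and Lyve1 on each array (points) with group means (bars) and the mean of the array medians (dotted). The first 3 are highest in the C57BL/6J line, Csf1r and Fcgr3 are intermediate there and low in the tsA58 line, and the last 3 lie below the dotted line in both lines.

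After Lyve1, the complement chains C1qb and C1qa fell furthest in the tsA58 line. C1qa, C1qb and C1qc encode the 3 chains of the molecule that binds antibody complexes and dying cells, and lie side by side in the genome. C1qa was 3.94, 4.17 and 3.90 in the C57BL/6J line against 7.41 and 7.52, and 3.93, 3.96 and 3.68 in the tsA58 line against 8.68, 10.33 and 9.56. C1qb was 3.14, 3.29 and 3.51 against 7.11 and 7.09, and 3.26, 3.58 and 3.23 against 8.38, 10.11 and 9.47. C1qc was 3.60, 4.12 and 3.39 against 7.01 and 6.61, and 3.68, 3.22 and 3.42 against 8.15, 9.80 and 8.68. All 3 chains were below the array median on every line array and above it on every tissue array. In C57BL/6J the differences were -3.46 ± 0.37, -3.79 ± 0.39 and -3.11 ± 0.41, and in tsA58 they were -5.67 ± 0.33, -5.97 ± 0.35 and -5.44 ± 0.37. The 3 probe sets of C1qb gave calls in the same direction in both strains.

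Fc receptors bind the constant part of antibodies, and the activating ones signal through adaptors with an ITAM motif. Fcgr3, a low-affinity activating receptor, was intermediate in the C57BL/6J line, at 6.43, 6.01 and 5.95 against 7.90 and 7.89 in tissue. In the tsA58 line it was 3.86, 4.13 and 3.95, below the array median, against 7.94, 8.97 and 8.83. The differences were -1.77 ± 0.29 (adjusted p = 0.000643) and -4.60 ± 0.26 (adjusted p = 2.8e-07). Its adaptor Fcer1g gave -1.93 ± 0.28 and -2.90 ± 0.25.

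Tyrobp encodes the adaptor DAP12, the partner of Trem2. It read 4.35, 4.20 and 4.06 in the C57BL/6J line and 3.62, 3.72 and 3.67 in the tsA58 line, against 8.04 and 7.79 and 8.18, 9.55 and 8.27 in tissue. Where Trem2 was highest, in the C57BL/6J line, Tyrobp was thus below the array median. The differences were -3.72 ± 0.35 and -5.00 ± 0.31. The inhibitory receptor Fcgr2b was called lower in tsA58 alone (-1.18 ± 0.24), and the high-affinity receptor Fcgr1 lay between 4.20 and 5.23 on all arrays with no call.

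Lysozyme 2 (Lyz2), a bacteria-degrading enzyme of myeloid cells, and cathepsin S (Ctss), a protease that trims the invariant chain of MHC class II, were the genes of their group with the largest falls. Lyz2 was 5.19, 5.33 and 5.02 in the C57BL/6J line against 9.04 and 9.12, and 4.72, 5.00 and 6.19 in the tsA58 line against 9.82, 11.73 and 11 (-3.90 ± 0.52 and -5.54 ± 0.46). Ctss was 3.18, 2.92 and 3.40 against 7.73 and 8.40, and 3.56, 3.00 and 2.92 against 7.50, 9.19 and 8.86 (-4.90 ± 0.44 and -5.36 ± 0.40). Lyz2 stayed above the array median on line arrays and Ctss did not. The class II chain H2-Aa gave -3.52 ± 0.64 in tsA58 and -1.79 ± 0.72, not called, in C57BL/6J. The 2 chains of the phagocyte oxidase differed: Cybb was called lower in tsA58 alone (-1.81 ± 0.59), with groups that overlapped, and Cyba, which many cell types express, was 9.58 to 10.64 in all groups with no call.

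The chemokine Pf4, known from platelets and made by resident macrophages too, was 4.05, 4.78 and 4.08 in the C57BL/6J line against 8.69 and 8.83, and 3.90, 3.64 and 4.75 in the tsA58 line against 8.22, 9.02 and 8.28. The fall was alike in both strains, at -4.45 ± 0.37 and -4.41 ± 0.33. Of the platelet genes, Ppbp was below the array median on 10 of 11 arrays and 6.56 in C57BL/6J tissue replicate 2, while Gp9 (4.85 to 5.86) and Itga2b (6.73 to 7.81) were not called in either comparison. Their part in the level of Pf4 was not tested.

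Lymphocyte chains gave no call. The T cell chain Cd3e was 6.31, 6.29 and 5.87 in the C57BL/6J line, 5.85 and 5.82 in its tissue, 5.86, 5.59 and 6.12 in the tsA58 line and 5.73, 5.93 and 5.72 in tsA58 tissue (0.32 ± 0.21 and 0.06 ± 0.19). Its partners Cd3d and Cd3g read 3.72 to 4.72 and 2.93 to 3.81. The B cell chain Cd79a was 4.75, 4.71 and 4.55, then 4.12 and 4.31, then 4.13, 4.07 and 4.56, then 4.27, 4.60 and 4.71 in the same order. It was above the array median on 1 array. Of 11 other T and NK cell genes with a probe set 2 were tested and none was called, and of 8 other B and plasma cell genes 4 were tested and Jchain alone was called, lower in the tsA58 line by 2.10 ± 0.76, with tissue values of 2.96, 5.29 and 7.16.

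Promoter windows of 300 bases, 250 before and 50 after the gene start (RefSeq, build GRCm38.p6), were found for 29 of the 36 genes. They were searched on both strands for GAGGAAGT, a purine-rich element of the kind PU.1 binds, and for the shorter GAGGAA contained in it. The longer motif was in the windows of 4 genes (13.8%), against 3.69% of the 27025 genes with a window, and the shorter in 18 (62.1%) against 31.3%. The 4 are shown because 3 of them, Ctss, C1qc and Pf4, fell in both lines and the other, Cd53, stayed level. In each the match is on the opposite strand, so it reads ACTTCCTC, in capitals. The windows are Ctss at chr3:95526536-95526835 on the plus strand, C1qc at chr4:136892865-136893164 on the minus strand, Pf4 at chr5:90772185-90772484 on the plus strand and Cd53 at chr3:106790100-106790399 on the minus strand.
Ctss: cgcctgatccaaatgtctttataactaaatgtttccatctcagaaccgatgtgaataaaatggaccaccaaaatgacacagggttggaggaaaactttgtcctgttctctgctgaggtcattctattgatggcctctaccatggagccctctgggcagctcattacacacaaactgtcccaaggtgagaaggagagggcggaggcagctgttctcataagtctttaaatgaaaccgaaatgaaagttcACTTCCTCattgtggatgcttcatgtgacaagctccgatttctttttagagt
C1qc: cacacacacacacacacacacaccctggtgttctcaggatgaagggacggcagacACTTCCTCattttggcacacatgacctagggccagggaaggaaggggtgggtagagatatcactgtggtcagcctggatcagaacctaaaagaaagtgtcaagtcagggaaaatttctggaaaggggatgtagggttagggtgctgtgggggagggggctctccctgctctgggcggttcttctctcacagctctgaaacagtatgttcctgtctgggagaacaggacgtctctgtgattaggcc
Pf4: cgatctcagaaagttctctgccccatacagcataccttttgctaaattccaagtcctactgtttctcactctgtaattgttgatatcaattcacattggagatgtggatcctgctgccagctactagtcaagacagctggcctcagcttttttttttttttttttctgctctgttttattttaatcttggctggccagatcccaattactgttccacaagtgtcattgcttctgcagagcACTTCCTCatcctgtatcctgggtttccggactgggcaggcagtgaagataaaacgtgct
Cd53: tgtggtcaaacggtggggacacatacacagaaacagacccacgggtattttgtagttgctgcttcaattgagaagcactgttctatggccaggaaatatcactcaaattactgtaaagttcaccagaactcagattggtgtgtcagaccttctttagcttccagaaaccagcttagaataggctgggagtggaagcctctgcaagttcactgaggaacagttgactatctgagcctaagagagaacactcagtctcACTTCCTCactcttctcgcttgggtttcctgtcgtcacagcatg
The match begins 2 bases before the gene start in Ctss, 10 before in Pf4, 195 before in C1qc and 6 after in Cd53. A match describes letters in a window and is no evidence of binding.

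The lines were then compared with each other. The tsA58 line had 5 of the 35 genes lower than the C57BL/6J line and 0 higher, where 5.77% of all genes were called lower and 8.38% higher (limma, again 0 higher among the 35 at an unadjusted p under 0.05). Without the filter 4 were lower and 0 higher, against 4.08% and 5.84%. The 5 were Csf1r, Fcgr3, Cd68, Cd14 and Trem2, and the median over the 35 was -0.18, beside -0.04 over all genes. From the levels above, Csf1r was lower by 2.27 ± 0.38 (adjusted p = 0.00214) and Fcgr3 by 2.15 ± 0.26 (adjusted p = 0.00033), with no overlap. These 2 calls held with each array left out in turn. Cd68 differed by -1.41 ± 0.38 and Cd14 by -1.17 ± 0.35 (adjusted p = 0.024 and 0.0366), also with no overlap, and Trem2 by -1.53 ± 0.48 (adjusted p = 0.0434) with overlap through tsA58 line replicate 3.

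The calls for Cd68, Cd14 and Trem2 were less firm. The actin ratio, 3' over 5', moved with this comparison, at 0.99 to 1.04 in the C57BL/6J line and 0.05 to 0.85 in the tsA58 line. With it as a covariate Cd68 stood at -0.98 (limma adjusted p = 0.227) and Cd14 lost its call (adjusted p = 0.0898), as Cd14 also did with a replicate block (adjusted p = 0.0653). Cd68 lost its call without C57BL/6J line replicate 1 (adjusted p = 0.103) and without tsA58 line replicate 1 or 3 (0.0554 and 0.0501). Cd14 lost it when either C57BL/6J tissue array, C57BL/6J line replicate 1 or 2 or tsA58 line replicate 2 or 3 was left out (0.055 to 0.141), and Trem2 when any one of 8 arrays was (0.054 to 0.147). Trem2 also lost it with no filter (limma adjusted p = 0.0576) and with only the line arrays fitted (0.0829). With the mean of its probe sets Trem2 stood at -0.70 (0.0904), and its second probe set gave 0.12 ± 0.17, not called. With centring on the hybridisation controls, which raises every gene by 1.49 in this comparison and turns the sign for Cd68 (0.08) and Cd14 (0.32), 15 genes were called higher and 0 lower.

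Between the tissues, the tsA58 muscle wall had 8 of the 35 genes higher than the C57BL/6J wall and 2 lower, against 9.56% and 3.21% of all genes. Without the filter the counts were 8 and 1, against 6.73% and 2.3%. The 8 were Lyve1, the 3 C1q chains, Cd163, Lyz2, Folr2 and Coro1a, and the 2 were Cx3cr1 and Laptm5. Without tsA58 tissue replicate 2, which differed from the others in sex-linked transcripts, 6 were higher and 1 lower. The median over the 35 was 0.39, beside 0.18 over all genes. Ptprc, Csf1r, Adgre1 and Mrc1, general markers of leukocytes and macrophages, differed by 0.97 ± 0.36, -0.25 ± 0.42, -0.29 ± 0.28 and 0.16 ± 0.30, and none was called. For Csf1r this depended on the probe set: the 2 others gave 0.70 ± 0.35, not called, and 1.21 ± 0.26, called higher in tsA58 tissue (limma adjusted p = 0.00743), and the mean of all gave 0.56.

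Lyve1 had the largest rise, 2.39 ± 0.19 (adjusted p = 0.00012), and its second probe set gave 0.96 ± 0.28, under 2-fold. C1qa, C1qb and C1qc rose by 2.06 ± 0.37, 2.22 ± 0.39 and 2.06 ± 0.41 (adjusted p = 0.00452, 0.0042 and 0.00737). The lowest tsA58 tissue array was above both C57BL/6J tissue arrays for each of the 3 chains. The call for C1qc was lost without C57BL/6J tissue replicate 2 (adjusted p = 0.0734), and those for C1qa, C1qb and Lyve1 held with each array left out in turn.

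Cd163 was higher by 1.92 ± 0.51, Lyz2 by 1.76 ± 0.52, Folr2 by 1.49 ± 0.33 and Coro1a by 1.19 ± 0.29 (adjusted p = 0.0243, 0.0363, 0.0112 and 0.0168). None of the 4 overlapped between the tissues, which describes 2 and 3 arrays and adds no support to the calls. Each lost its call without some array: Cd163 without either C57BL/6J tissue array (0.12 and 0.134), Lyz2 without any of 7 arrays (0.053 to 0.172), Folr2 without C57BL/6J tissue replicate 2 (0.116) and Coro1a without C57BL/6J tissue replicate 1 (0.171). Without tsA58 tissue replicate 2, Coro1a was under 2-fold (0.97).

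Cx3cr1 was lower in tsA58 tissue by 1.71 ± 0.22 (difference -1.71, adjusted p = 0.00104), and this call held when any one of the other 9 arrays was left out. Without either C57BL/6J tissue array Cx3cr1 was above the array median on 1 array only, did not pass the filter and was not tested. Centred on the hybridisation controls, which raises every gene by 2.13 here, Cx3cr1 stood at 0.41, and 33 of the 35 genes were called higher and 0 lower. The share of all genes called higher with this shift is not given, so the count does not single out the listed genes. Quantile and cyclic loess scaling moved the median of all genes by -0.12 and -0.13.

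**Figure D4:**
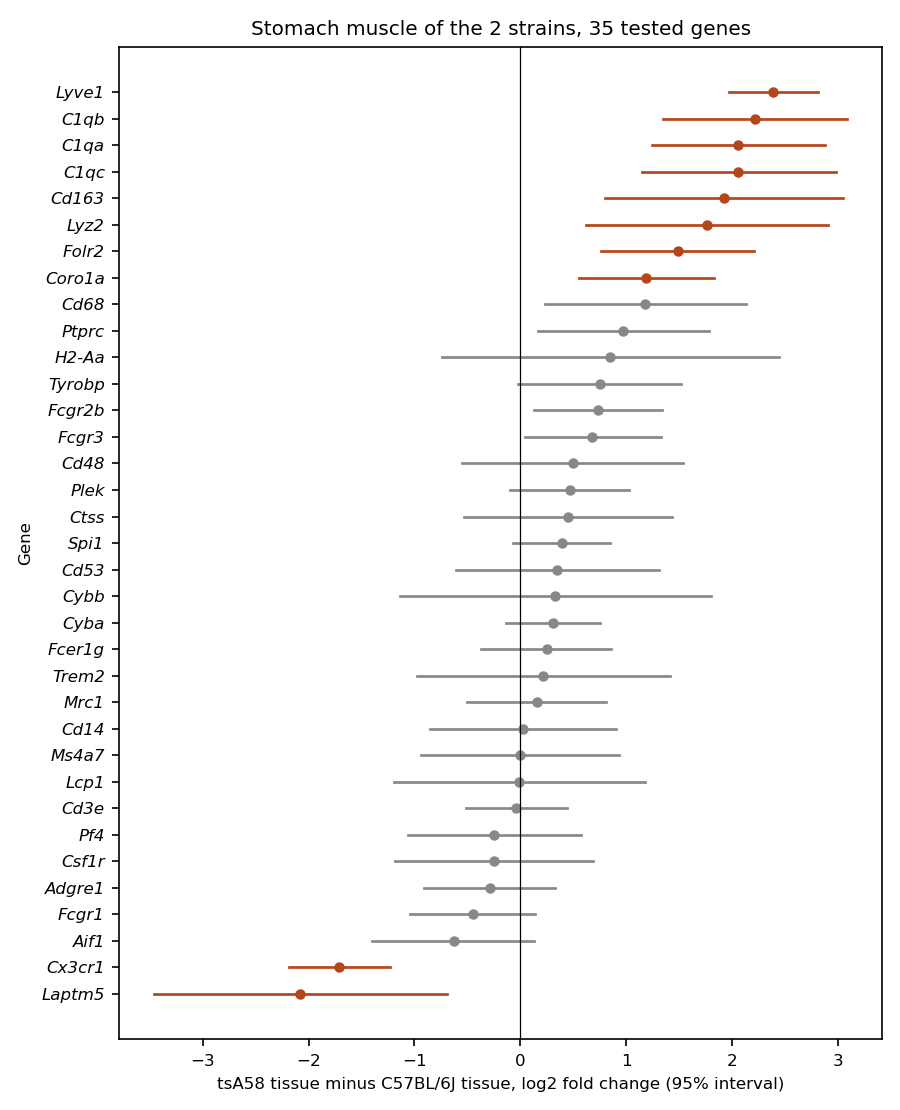
Difference between tsA58 and C57BL/6J stomach muscle (log2 fold change, points) with its 95% interval (lines) for the 35 tested genes, called genes in orange. The C1q chains and Lyve1 lie above 2. Of the general markers, Csf1r and Adgre1 have intervals that include 0, and Ptprc has an interval above 0 but is not called. Cx3cr1 and Laptm5 are called lower, a direction that both lose when levels are centred on the hybridisation controls (0.41 and 0.05).

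Markers of some other cells moved with the tissue difference, for which 9.56% of all genes tested were called higher. Endothelial and lymphatic genes averaged 5.68 and 5.94 in C57BL/6J tissue and 6.42 to 7.28 in tsA58 tissue. Of these, 4 of 9 tested genes were called higher, Lyve1 among them. Smooth muscle genes averaged 11.30 and 11.42 against 12.38 to 12.85, with 3 of 7 higher. Fat genes averaged 4.69 and 4.83 against 4.99 to 8.20, with Adipoq at 6.44 and 6.54 against 7.75, 12.20 and 11.33. Mucosal genes averaged 10.47 and 10.88 against 9.94 to 12.90, with 0 of 7 called. Exocrine pancreas genes and blood cell genes, the latter with Pf4, had 0 of 4 called each. Their part in the differences of the macrophage genes was not tested. The actin ratio, 3' over 5' on the log2 scale, was 1.02 and 0.84 in C57BL/6J tissue and 0.41 to 0.47 in tsA58 tissue. With it as a covariate 5 genes were called higher, and Cd163, Folr2 and Lyz2 were not.

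The 2 strains were also compared in how far the line lay from its tissue. The difference between the tsA58 and the C57BL/6J line-tissue differences was called for 10 of the 35 genes, beside 20.3% of all genes. Of the 10, 8 were lower and 2 higher, against 13% and 7.3%. Without the filter the counts were again 8 and 2, against 9.2% and 5.02%. Its median was -0.86, beside -0.18 over all genes. Fcgr3 (-2.83 ± 0.39, adjusted p = 0.00123), Lyve1 (-2.66 ± 0.26, adjusted p = 0.000239) and Cd68 (-2.59 ± 0.58, adjusted p = 0.0107) were the furthest below 0. C1qa, C1qb and C1qc followed at -2.20, -2.18 and -2.33, then Csf1r at -2.02 and Folr2 at -1.47. For the C1q chains, Lyve1 and Folr2 the tissues differed by a called amount and the lines did not. For Fcgr3, Cd68 and Csf1r the lines did and the tissues did not, but a missing call does not mean no difference. Cd68 differed by 1.18 ± 0.43 between the tissues (limma adjusted p = 0.0775), with no overlap, and by -1.41 ± 0.38 between the lines. For Csf1r, 1 other probe set was called between the tissues (1.21 ± 0.26) and was under 2-fold between the lines (-0.92 ± 0.23). Strain differences above 0 were those of Cx3cr1 (1.82 ± 0.29, adjusted p = 0.00247) and Laptm5 (2.85 ± 0.84, adjusted p = 0.0334). With centring on the hybridisation controls 4 genes were called lower and 0 higher. The comparison uses the same arrays as those above and adds no independent support to them.

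For several of the genes the choice of probe set mattered. The 36 genes have 65 probe sets in all, and 16 genes have more than 1. Another tested probe set existed for 10 genes, and for 8 of them (Coro1a, Csf1r, Fcgr2b, H2-Aa, Laptm5, Lyve1, Plek and Trem2) at least 1 call differed between probe sets, while for C1qb and Lcp1 none did. When every single-symbol probe set was tested on its own, 25 genes were lower in the C57BL/6J line by at least 1 probe set, 26 in the tsA58 line, and 11 were higher in tsA58 tissue. Laptm5 was represented by a probe set at 5.79, 5.70 and 5.75, then 7.10 and 7.44, then 5.75, 5.56 and 8.24, then 5.41, 5.04 and 5.13 in the order of C57BL/6J line, C57BL/6J tissue, tsA58 line and tsA58 tissue. Its tissue difference of -2.08 ± 0.62 (adjusted p = 0.0394) was not shared by another probe set, which read 3.06, 2.82 and 2.50, then 7.32 and 7.09, then 2.47, 2.78 and 2.83, then 6.30, 7.66 and 6.49. That probe set was lower in both lines (-4.41 ± 0.36 and -4.12 ± 0.32) and did not separate the tissues (-0.39 ± 0.36). With the mean of all Laptm5 probe sets the tissue difference was -0.43 and the strain difference 0.45, neither called.

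For Fcgr2b, 2 other probe sets were low in both lines and high in tissue, at -2.37 ± 0.35 and -1.52 ± 0.35 in C57BL/6J and at -4.94 ± 0.32 and -4.06 ± 0.31 in tsA58. Both put tsA58 tissue above C57BL/6J tissue by 2.44 ± 0.35, where the probe set used gave 0.73 ± 0.27. For H2-Aa, another probe set gave -5.16 ± 0.39 in C57BL/6J, where the one used had no call, and -6.10 ± 0.34 in tsA58. The 2 other Csf1r probe sets were not called in the C57BL/6J line (-0.45 ± 0.35 and 0.08 ± 0.26) and were called lower in the tsA58 line (-3.02 ± 0.32 and -2.05 ± 0.23). The second probe set of Plek was not called in C57BL/6J (-0.31 ± 0.47) and put tsA58 tissue higher by 1.73 ± 0.47, where the one used gave 0.47. The second of Coro1a gave a tissue difference of 0.85 ± 0.31, not called, and a strain difference of -1.26 ± 0.41, called. Csf1r fell in the tsA58 line by all 3 probe sets, and in the C57BL/6J line by 1 of 3.

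**Figure D5:**
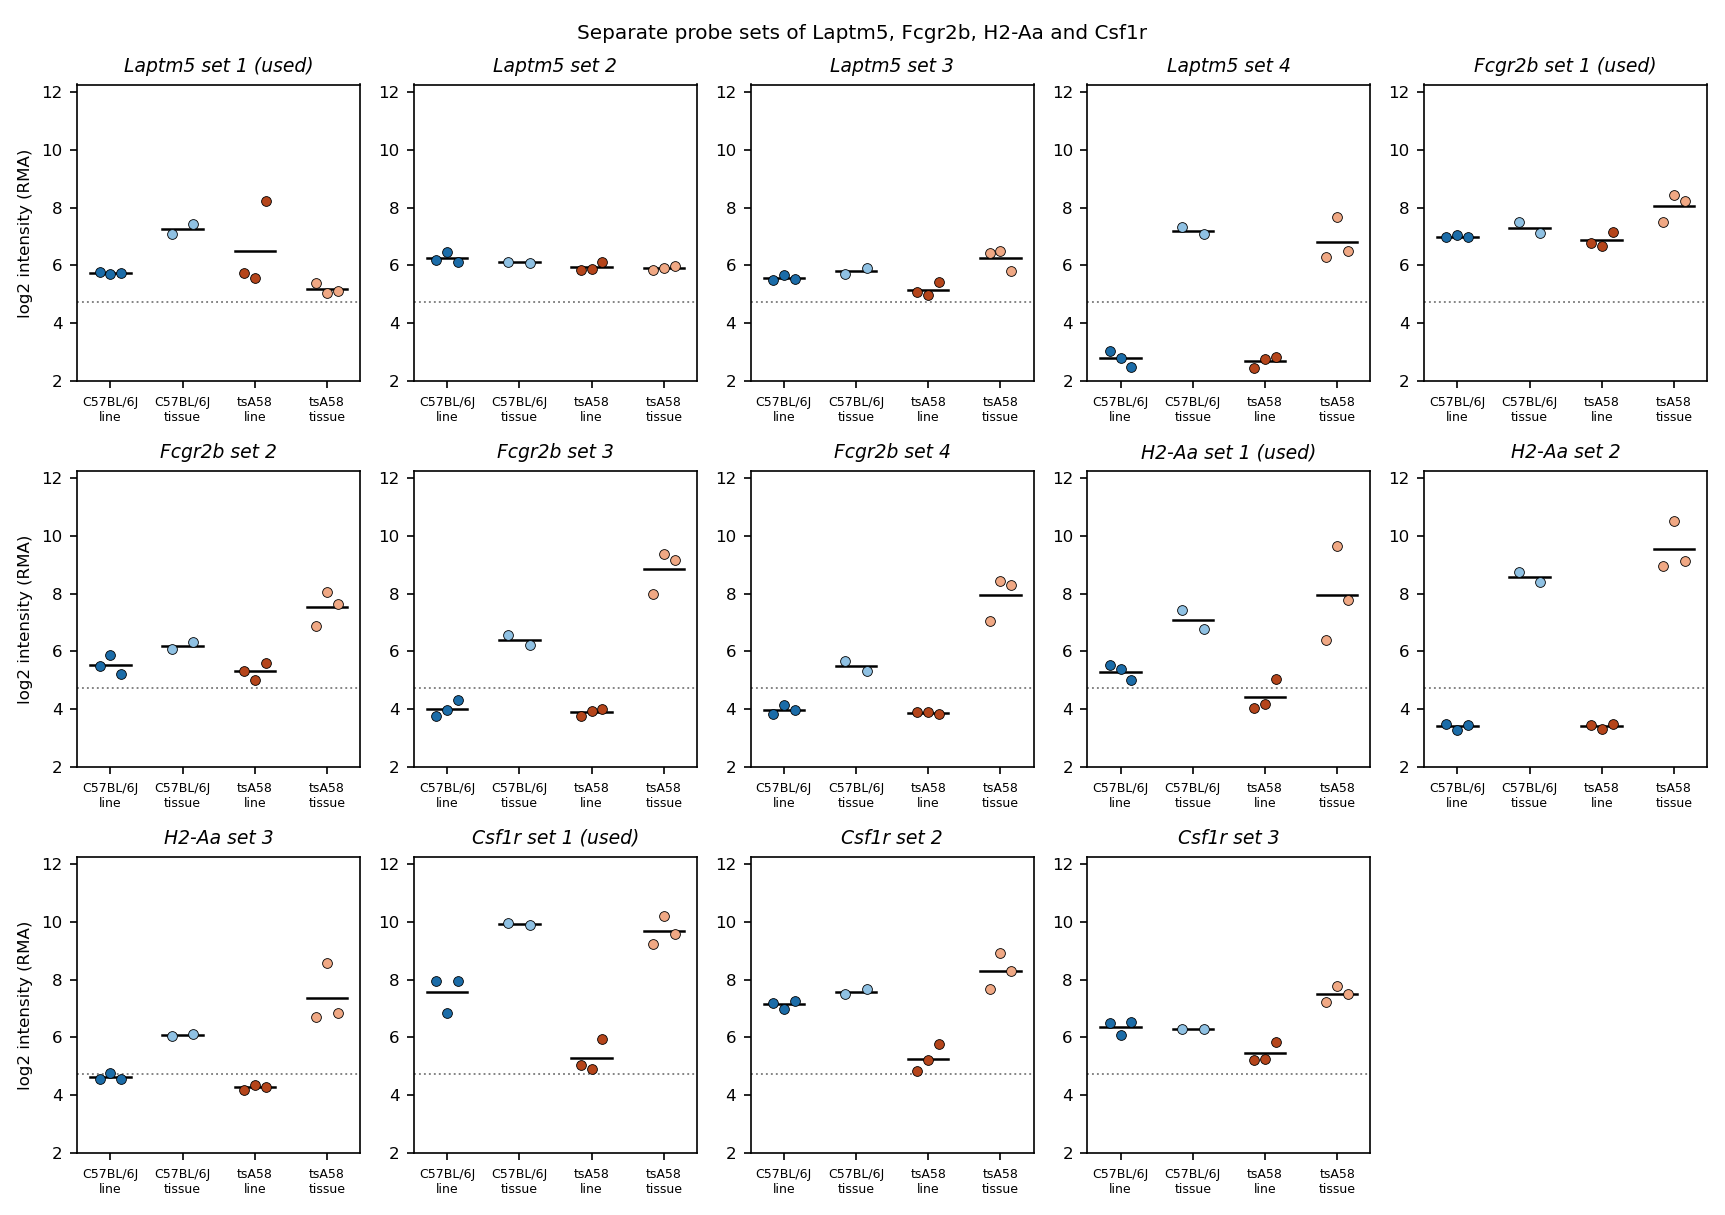
Log2 intensity (RMA) on each array (points) with group means (bars) and the mean of the array medians (dotted), for the tested probe sets of Laptm5, Fcgr2b, H2-Aa and Csf1r, where set 1 is the one with the highest mean. Laptm5 set 4, Fcgr2b sets 3 and 4 and H2-Aa set 2 are low in both lines and high in both tissues. The sets used for Laptm5 and Fcgr2b do not show this, and the set used for H2-Aa is also lower in both lines, but less far.

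A further 50 macrophage and myeloid genes were looked at beside the 36. A probe set was found for 46 and 34 were tested. Counts for this and the other lists beside the 36 are given with the filter only, which a gene can pass through the arrays where it is high. In the C57BL/6J line 9 of the 34 were lower and 5 higher, where 16.6% and 17.5% of all genes were, so that the rises were no more frequent than over all genes. In the tsA58 line 19 were lower and 1 higher, against 18.9% and 12.8%. Among those lower in both were Ly86 (-3.16 ± 0.37 and -2.96 ± 0.33), a partner of a Toll-like receptor homologue, and Cd52 (-2.46 ± 0.40 and -2.71 ± 0.36), a small leukocyte surface protein. The class II beta chain H2-Ab1 fell with its partner H2-Aa, by -1.89 ± 0.47 and -3.97 ± 0.42. The general myeloid integrin Itgam was not tested, and read 2.88 to 3.33 outside tsA58 tissue and 3.16, 5.29 and 3.59 in it.

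The 5 that were higher in the C57BL/6J line were Runx1, Ccl8, Tlr7, H2-Eb1 and Fcgr4. Runx1, a transcription factor of blood formation also active elsewhere, was 7.99, 8.07 and 7.43 in the line against 4.68 and 4.86 in tissue (3.06 ± 0.36), and it was the 1 gene of the list higher in the tsA58 line (1.03 ± 0.33). H2-Eb1, another class II beta chain, was 8.61, 8.50 and 9.13 in the C57BL/6J line against 7.21 and 6.78 in tissue, and 4.66, 4.73 and 5.05 in the tsA58 line against 7.88, 9.63 and 8.04. It rose in the first by 1.75 ± 0.45 and fell in the second by 3.71 (difference -3.71 ± 0.40), a strain difference of -5.46 ± 0.61 (adjusted p = 0.000436). The class II genes H2-Aa, H2-Ab1 and Cd74 did not rise with it in the C57BL/6J line.

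In tsA58 tissue 11 of the 34 were higher than in C57BL/6J tissue and 0 lower, against 9.56% and 3.21% of all genes. Retnla, a marker of alternatively activated macrophages that fat tissue also makes, was 5.54 and 4.98 in C57BL/6J tissue and 6.95, 10.95 and 10.31 in tsA58 tissue (4.14 ± 0.90, adjusted p = 0.0104). H2-Ab1 was 6.34 and 6.02 against 7.90, 9.55 and 7.70 (2.21 ± 0.47, adjusted p = 0.00994). The lectin Clec10a was 4.67 and 4.51, both below the array median, against 5.28, 7.29 and 7.64 (2.15 ± 0.53, adjusted p = 0.0184). The tissues did not overlap for any of the 3. Between the lines, 6 of the 34 were lower in tsA58, against 5.77% of all genes, among them H2-Eb1 (-3.94 ± 0.40), and Cd74 alone was higher (2.15 ± 0.51).

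Genes through which macrophages and their surroundings exchange signals were given on a list of 12, of which 10 were tested. The C57BL/6J line had 4 higher and 3 lower (17.5% and 16.6% of all genes) and the tsA58 line 5 higher and 2 lower (12.8% and 18.9%). Csf1, the growth factor that macrophages need, was 9.13, 9.40 and 9.43 in the C57BL/6J line against 7.12 and 7.02 in tissue, and 10.23, 9.96 and 10.44 in the tsA58 line against 7.65, 8.11 and 7.81. Both lines were thus above their tissue, by 2.25 ± 0.21 and 2.35 ± 0.19 (adjusted p = 1.63e-05 and 3.87e-06), while the probe set used for its receptor Csf1r was below. Ccl2, the chemokine that draws monocytes, was higher still, at 10.59, 10.49 and 10.25 against 5.52 and 5.49, and at 11.56, 10.17 and 11.74 against 5.74, 7.18 and 5.20 (4.94 ± 0.56 and 5.11 ± 0.50). Il34, the second ligand of CSF1R, was below the array median on all arrays (3.14 to 4.04).

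Bmp2 and Cd200 were lower in both lines. Bmp2, which muscularis macrophages make, was 5.52, 5.67 and 6.18 in the C57BL/6J line against 8.80 and 8.81, and 3.35, 3.03 and 3.07 in the tsA58 line against 6.43, 6.72 and 6.07 (-3.01 ± 0.25 and -3.25 ± 0.22). Bmp2 was also lower in tsA58 than in C57BL/6J, by 2.64 ± 0.22 between the lines and by 2.40 ± 0.25 between the tissues (differences -2.64 and -2.40). Cd200, the ligand of an inhibitory receptor on macrophages, fell by -5.28 ± 0.52 and -4.54 ± 0.46. Tgfb1 rose in both lines (3.53 ± 0.32 and 1.35 ± 0.28), and was higher in tsA58 than in C57BL/6J tissue by 1.84 ± 0.32.

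Mast cells and granulocytes, other leukocytes that the wall can hold, were followed with 12 genes, 6 of them tested. The mast cell genes Cpa3 (-2.70 ± 0.55 and -3.78 ± 0.50) and Cma1 (-1.72 ± 0.56 and -3.48 ± 0.50) were lower in both lines. Lower against tissue were 3 of the 6 in C57BL/6J and 4 in tsA58, where 16.6% and 18.9% of all genes tested were. None of the 6 was called higher, against 17.5% and 12.8% of all genes. Between the tissues the tryptase Tpsb2 was higher in tsA58 (2.18 ± 0.41), at 5.65, 7.23 and 5.75 against 3.91 and 4.15. The neutrophil gene S100a9 was lower (-3.39 ± 0.55), at 3.29, 5.82 and 4.58 against 8.31 and 7.60. Interferon-induced genes, 8 of them tested, also separated the lines: 7 were called higher in tsA58, against 8.38% of all genes. Their array means were 9.48 to 10.53 beside 5.51 to 6.24 in C57BL/6J. Their part in the differences between the lines was not tested.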

How the data were processed

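RNA of 11 samples, about 50 ng each and amplified in 2 rounds, was hybridised to Affymetrix mouse genome arrays, per the labels. The deposited values are log2 intensities. The submitters' processing notes name RMA for them without a version, and they were used unchanged. Of 45101 probe sets, 34945 have 1 gene symbol in the platform annotation, 932 several and 9224, controls included, none; symbols were checked through Entrez identifiers against RefSeq, with 34754 matched and 0 changed. A gene took its probe set of highest mean level, and 13285 genes above the array median on at least 2 arrays were tested.

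The 4 group means were fitted in 1 limma model (limma 3.58.1, R 4.3.3; 7 residual and 3.49 prior degrees of freedom), with 5 comparisons, Benjamini-Hochberg adjustment over all genes in each and calls at an adjusted p below 0.05 and at least 2-fold. Tables and figures used Python 3.11.15 with numpy 2.4.6, pandas 2.3.3 and matplotlib 3.10.9. Tested on simulated data for the C57BL/6J line against its tissue (13285 genes), the fit recovered 161 of 200 genes changed by 2 log2 units, with 7 false calls. The simulation drew independent noise around 1 mean per gene and changed only these 200, whereas 34.1% of genes were called in the real comparison. Its figures are therefore no error rates for the results above.

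The 36 genes and all other lists were chosen with earlier results of these data known. Named with all array values were 25 of the 36: per role the 2 called genes of largest change between line and tissue, every gene called higher in any comparison or called between tissues or in the strain difference, and 6 defining markers. From other lists up to 3 called genes of largest change per comparison were named; further names were chosen after their values were seen. The alternatives were no filter and a stricter one, quantile and cyclic loess scaling, centring on the hybridisation controls, the mean of all probe sets, only a comparison's own arrays, a replicate block, the actin ratio as covariate, and leaving out each array. The test of each probe set on its own was added after seeing the data. The number of arrays limits the precision.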

Additional observations from a re-analysis of the deposited data

Results flagged for a closer look

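For 10 of the 35 genes tested, beside 20.3% of all genes, the distance between line and tissue differed between the strains. Calls are by limma's test of that difference (tsA58 minus C57BL/6J, log2 scale, adjusted p below 0.05 and at least 2-fold). The difference was -2.83 for Fcgr3 and -2.66 for Lyve1, and these calls held under each of the 19 alternatives run for them. Tested on its own, the second probe set of Lyve1 gave -1.06 ± 0.38 and was not called (limma adjusted p = 0.0642). For Cx3cr1 the difference was 1.82, and it lost its call when levels were centred on the hybridisation controls (1.19). Without either C57BL/6J tissue array, and with the mean of all probe sets, Cx3cr1 did not pass the filter and was not tested. The C1q chains stood at -2.20 (C1qa), -2.18 (C1qb) and -2.33 (C1qc). Without C57BL/6J tissue replicate 1 the limma adjusted p was 0.0519 for C1qa and 0.0587 for C1qb, and without replicate 2 it was 0.0604 for C1qb and 0.0692 for C1qc. Centred on the hybridisation controls it was 0.0514 for C1qa and 0.0545 for C1qb.

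Cd68 differed by -2.59, with an adjusted p of 0.0549 by limma without C57BL/6J tissue replicate 1. Csf1r differed by -2.02, Folr2 by -1.47 and Laptm5 by 2.85, and each of these calls was lost when any one of 6 or 7 arrays was left out. For Csf1r the 2 other probe sets gave -2.57 and -2.13, both called. For Laptm5 the mean of all probe sets gave 0.45, not called, and tsA58 line replicate 3 was the array on which the probe set used stood apart, at 8.24 against 5.75 and 5.56.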

How the results depend on the processing

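Of 120 results named for single genes, 63 were called, and 34 of these kept direction and call under every alternative run for them (20, or 19 for the strain difference, which uses all arrays); 40 did so under all but centring on the hybridisation controls. Not counted among these are 5 results of Cx3cr1 and Ptprc, which did not pass the filter under some alternatives (with the mean of all probe sets for both, and without either C57BL/6J tissue array for Cx3cr1). That centring moved the median of all genes by 1.23 (C57BL/6J line against tissue), 0.60 (tsA58 line against tissue), 1.49 (lines), 2.13 (tissues) and -0.64 (strain difference), and the 36 genes then gave 5 higher and 10 lower, 2 and 21, 15 and 0, 33 and 0, and 0 and 4 in this order. The shares of all genes called with it are not given, so these counts only describe the listed genes. The centring reversed the difference between the lines for Cd14 (0.32), Cd68 (0.08) and Ctss (1.48), and between the tissues for Adgre1 (1.83), Cd3e (2.09), Csf1r (1.88), Cx3cr1 (0.41), Laptm5 (0.05), Lcp1 (2.12) and Pf4 (1.88). With the actin ratio as covariate 2 genes were higher in the tsA58 line than its tissue, 3 lower between the lines and 5 higher between the tissues. With only the tissue arrays fitted 4 were higher there, with no filter 1 was lower, and with the mean of all probe sets 0 were lower there and 0 were higher in the strain difference (limma, 8 and 9 in the other direction). The causes were not tested.

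Leaving out 1 array at a time gave 2 to 3 higher and 20 to 24 lower in C57BL/6J, 1 to 2 and 23 to 25 in tsA58, 0 and 2 to 5 between the lines, 4 to 11 and 0 to 2 between the tissues, and 0 to 2 and 3 to 14 for the strain difference. The lowest count of rises between the tissues was without C57BL/6J tissue replicate 2 and the highest without tsA58 tissue replicate 1. With the replicate number as a block the counts were 3 and 23, 1 and 25, 0 and 4, 6 and 2, and 2 and 7. Same-numbered samples of different groups did not deviate together (15 pairs, correlations from -0.16 to 0.25, 1 of them over 0.1), so the numbers were not taken to pair the samples.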
